A study of Mus musculus with 2 samples.

Results

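The genes described here encode the soluble machinery of cytosolic protein synthesis other than the ribosome itself: the translation initiation factors eIF1 to eIF6, the elongation factors eEF1 and eEF2 with the enzymes that modify them, and the cytosolic aminoacyl-tRNA synthetases. They were chosen by name. Probe sets annotated to exactly 1 gene symbol of these families were taken, while the eIF2 kinases, Eif2s3x and Y-linked genes were left out. Farsa and Farsb, the subunits of the phenylalanine enzyme, were counted as synthetases. This gave 71 genes, measured by 177 of the 45037 probe sets on the array, among 18193 genes with such a probe set. The 71 genes comprised 41 of initiation, 11 of elongation and 19 of tRNA charging. A further 9 probe sets shared between 1 of these genes and another gene were not used, and Eif1, Eif4g1 and Eif4ebp3 were not analysed here. The 71 genes also did not include Eif2s1, Eif3g, Eif3j, Eef1g or Dars, so these families are not complete here.

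Initiation begins when eIF2 brings the initiator methionyl-tRNA to the small ribosomal subunit, helped by eIF1, eIF1A, eIF3 and eIF5, and the eIF4 factors load that subunit onto the capped mRNA. Elongation then proceeds as eEF1A delivers charged tRNAs and eEF2 moves the ribosome along. Each tRNA is charged by the synthetase of its amino acid, and blood stem cells are known for a low rate of protein synthesis compared with the progenitors they form.

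RNA came from bone marrow cells of wild-type C57BL6J mice, described as LSK Flt3- cells, that is, lineage-negative, Sca-1-positive, c-Kit-high cells without the Flt3 receptor, a fraction rich in blood stem cells. The cells had been transduced with Satb1, the gene of a chromatin organiser found in the nucleus, or with GFP as the control. There was 1 Affymetrix array labelled Satb1 and 1 labelled GFP, so a difference between them has no replicate error and no test. The sources used here do not state the vector, the number of animals or any pooling. Because the RNA was taken from a bulk population, fewer cells of a type and less RNA per cell cannot be told apart.

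Values below are MAS5 intensities, a linear scale of brightness per probe set. Intensities under a floor of 61.7, the median of all values, were raised to it before log2 differences (Satb1 minus GFP) were taken. By its probe sets, Satb1 was not higher on the array that carries its name. Its brightest probe set, 1416008_at, gave 909 on the array labelled Satb1, against 1116 on the array labelled GFP, and the next, 1416007_at, gave 908 against 964. Dimmer ones stood lower still, with 1436182_at at 165 against 288, a log2 difference of -0.81, and 1439449_at at 30.5, below the floor, against 81.4. Whether these probe sets match the transduced sequence was not analysed here. Every direction below therefore rests on the labels. Of 4 marker genes listed for the cells, 3 were measured, without Ly6a, the gene of Sca-1. Kit read 3388 against 3293, Cd34 read 8197 against 8563, and Flt3 RNA read 1334 against 1390. Of 8 lineage genes, 5 were measured: Cd3e, Cd4 and Ms4a1 lay below the floor on both arrays, Itgam read 121 against 127, and Cd8a read 148 against 88.9. The part of other cells in the results was not tested. The scaled arrays had equal trimmed means of 497, and 49.2% of all probe sets on the array labelled Satb1 and 50.7% on the array labelled GFP lay above the floor.

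The translation genes read nearly the same on both arrays. Both arrays measured 69 of the 71 genes above the floor, and 60 had a mean intensity of at least 1000. Of the 69, 37 were higher on the array labelled Satb1 by some amount and 32 were lower, and their median log2 difference was 0.015 with an SD across genes of 0.16. Over all 11048 genes above the floor on at least 1 array, 45.2% were higher and 54.8% lower, the median was -0.024 and the SD 0.30. Among the 4616 genes of all kinds with a mean intensity of at least 1000, 54.3% were higher, the median was 0.016 and the SD 0.20.

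Among the 69 genes, only Eif2a was at least 1.5-fold higher, and 0 were at least 1.5-fold lower. That threshold was passed upward by 1.75% and downward by 3.91% of all genes above the floor. Among genes with a mean intensity of at least 1000, 0.498% were higher and 0.715% lower by that much, and Eif2a was 1 of 60 translation genes at that level, too few to set this count apart from the share of all genes. At 2-fold the count was 0 in either direction, where 0.272% of all genes above the floor were higher and 0.86% lower. The lowest of the 69 differences was -0.30, for the serine enzyme gene Sars.

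**Figure D1:**
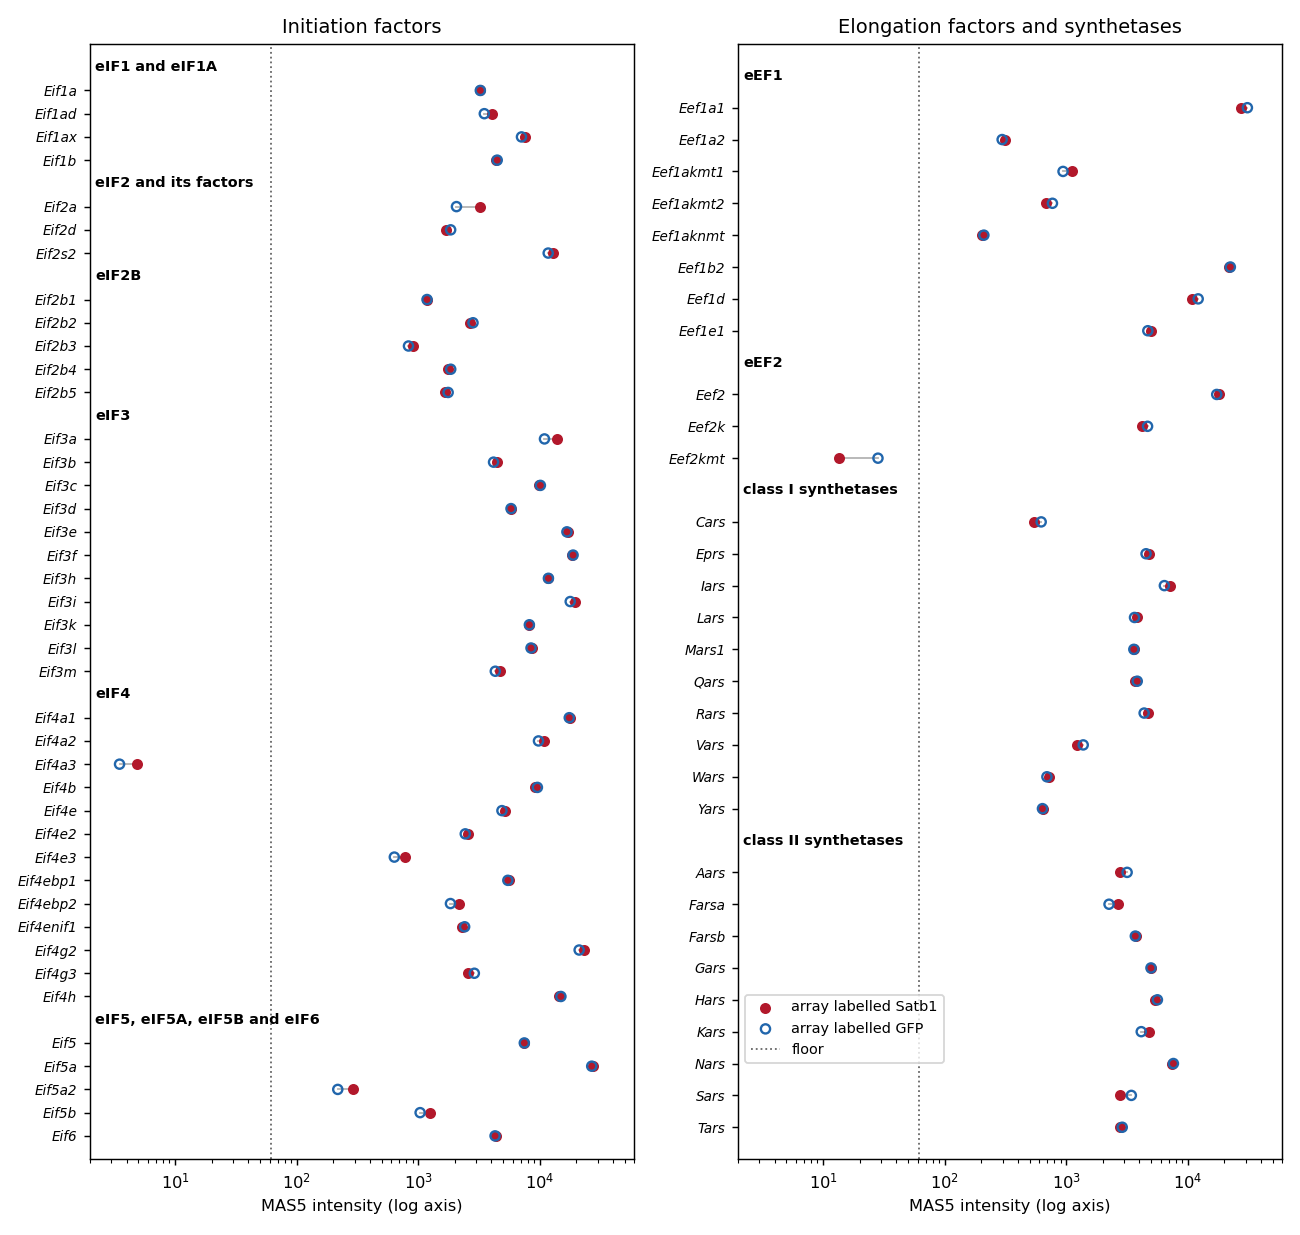
MAS5 intensity (log axis) of the 71 translation genes, by role, on the array labelled Satb1 (filled) and the array labelled GFP (open), each shown by its brightest probe set, with the floor of 61.7 dotted. Most pairs of points overlap; Eif2a, at 3253 against 2065, is the only pair above the floor that is at least 1.5-fold apart, and Eif4a3 and Eef2kmt lie below the floor.

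**Figure D2:**
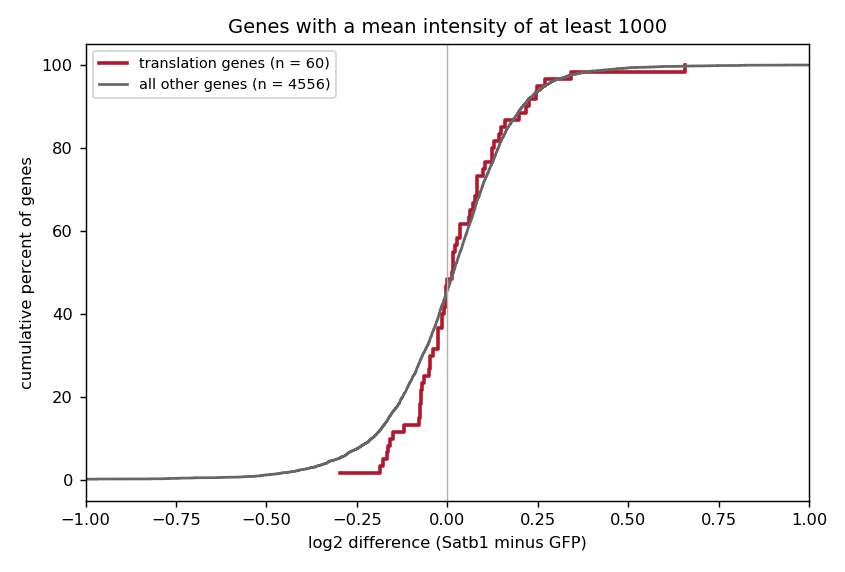
Cumulative percent of genes by log2 difference (Satb1 minus GFP), for the 60 translation genes and the 4556 other genes with a mean intensity of at least 1000; the axis is limited to -1 to 1. Both curves cross the middle near 0, with medians of 0.014 for the translation genes and 0.017 for the others, and the translation genes start at -0.30.

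The first factors on the small subunit differed little. Eif1a and Eif1ax encode forms of eIF1A, which occupies the ribosomal A site during scanning. Eif1a read 3237 on the array labelled Satb1 and 3244 on the array labelled GFP, and Eif1ax read 7568 against 7071, a log2 difference of 0.10. Dimmer Eif1ax probe sets went both ways, at 1665 against 1360 and 441 against 505. Eif1b, a paralogue of the start-codon selection factor eIF1, read 4384 against 4466. The highest of this group was Eif1ad, which encodes an eIF1A-related protein, at 4069 against 3497, a log2 difference of 0.22. Its other probe set was also higher, at 965 against 767.

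Among the genes that bring the initiator tRNA, Eif2s2 and Eif2a read higher. Eif2s2, the beta subunit of eIF2, read 12952 on the array labelled Satb1 against 11727 on the array labelled GFP, a log2 difference of 0.14, and all 6 of its probe sets were higher, by 0.039 to 0.32. Eif2a encodes a separate protein that can deliver the initiator tRNA without eIF2. The probe set that stands for Eif2a (1434452_x_at) read 3253 against 2065, a 1.58-fold difference. Its name marks it as one that can match transcripts of other genes, and the plain Eif2a probe set 1460575_at gave 2505 against 2621. The Eif2a difference therefore rests on 1 of its 2 probe sets above the floor, and without probe sets of that kind it was -0.065. Eif2d, whose product also handles tRNA on the small subunit, read 1703 against 1850 by its brightest probe set, a log2 difference of -0.12. Its other probe sets above the floor were higher, at 974 against 957, 144 against 142 and 185 against 112.

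The exchange factor eIF2B, which reloads eIF2 with GTP, was flat. Of its 5 subunit genes, 4 were lower by some amount and 1 was higher, between -0.078 and 0.13 on the log2 scale. Eif2b5, the catalytic epsilon subunit, read 1676 on the array labelled Satb1 against 1764 on the array labelled GFP. Eif2b2 read 2675 against 2824, the lowest of the group, Eif2b4 read 1759 against 1852, and Eif2b1 read 1179 against 1182. The gamma subunit gene Eif2b3 was the highest, at 913 against 832, a log2 difference of 0.13.

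Among the 71 genes, the 11 of eIF3, the scaffold that holds the initiation complex together, had a median log2 difference of 0.016. Eif3a, the large core subunit, stood highest. It read 13858 on the array labelled Satb1 against 10929 on the array labelled GFP, a 1.27-fold difference, and all 4 of its probe sets were higher, by 0.14 to 0.48 on the log2 scale. The other core subunit genes differed less: Eif3b read 4410 against 4167 and Eif3c read 9930 against 10112. Eif3f was the lowest at 18265 against 18788, a log2 difference of -0.041. Eif3i read 19375 against 17796, and Eif3e read 16962 against 16715. The remaining eIF3 genes among the 11, Eif3d, Eif3h, Eif3k, Eif3l and Eif3m, lay between -0.014 and 0.13 by their brightest probe sets. A dim Eif3m probe set was lower, at 82.2 against 119.

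In the cap-binding group, 12 genes were above the floor, 8 higher and 4 lower by some amount, with a median log2 difference of 0.049. The cap-binding protein gene Eif4e read 5148 on the array labelled Satb1 against 4884 on the array labelled GFP. By their brightest probe sets its paralogues also read higher: Eif4e2, whose product represses some capped mRNAs, read 2548 against 2439, and Eif4e3 read 781 against 637, the highest difference of the group at 0.30. Both Eif4e3 probe sets were higher, whereas 2 of the 5 Eif4e2 probe sets were lower, at 107 against 136 and 384 against 404.

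The helicase and scaffold genes lay between -0.18 and 0.15 on the log2 scale. Eif4a1, the main helicase that unwinds the mRNA leader, read 17667 on the array labelled Satb1 against 17478 on the array labelled GFP, and Eif4a2 read 10805 against 9757. The helicase cofactor genes Eif4b, at 9068 against 9559, and Eif4h, at 14430 against 14919, were both lower by some amount. Eif4g2, a scaffold that lacks the eIF4E-binding site, read 22972 against 21074, and Eif4g3 read 2560 against 2896, the lowest of the group at -0.18. Dimmer Eif4g2 probe sets read 11226 against 10385, 2875 against 3335 and 81.3 against 84.5. The single Eif4a3 probe set, for a helicase of the exon junction complex, read under the floor on each array.

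Genes for inhibitors of eIF4E were level or slightly higher. Eif4ebp1 and Eif4ebp2 encode proteins that sequester eIF4E until mTORC1 phosphorylates them. Eif4ebp1 read 5597 on the array labelled Satb1 against 5462 on the array labelled GFP. Its dimmer probe sets went both ways, at 3642 against 3255 and 148.8 against 174.5. Eif4ebp2 read 2154 against 1843, a log2 difference of 0.23, and 2 dimmer probe sets read 152 against 109 and 164 against 163. Eif4enif1, which encodes a carrier of eIF4E into the nucleus and into P-bodies, read 2303 against 2410.

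The factors of subunit joining and beyond included the second highest gene. Eif5a2, a paralogue of Eif5a, read 293 on the array labelled Satb1 against 218 on the array labelled GFP, a 1.34-fold difference, and its second probe set read 105 against 80.2, 1.31-fold higher. Eif5a itself, the hypusine-carrying factor that relieves stalled ribosomes, read 27247 against 26737. Eif5b, the GTPase that joins the ribosomal subunits, read 1251 against 1037, a log2 difference of 0.27, while its other probe sets read 520 against 526 and 160 against 210. The Eif5a2 probe sets thus went the same way, and those of Eif5b did not. Eif5, the factor that triggers GTP hydrolysis by eIF2, read 7449 against 7459 by its brightest probe set, and Eif6, which keeps the subunits apart, read 4391 against 4288. The dimmer Eif6 probe set was lower, at 267 against 302.

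**Figure D3:**
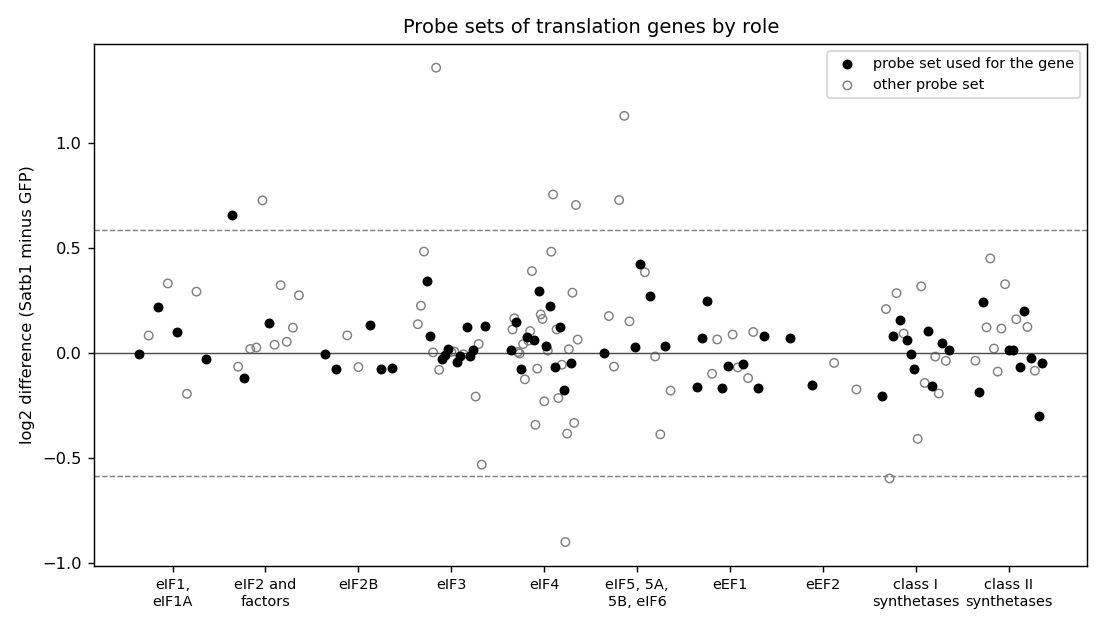
Log2 difference (Satb1 minus GFP) of the 160 translation probe sets above the floor on at least 1 array, by role; filled points are the probe sets that stand for a gene and dashed lines mark 1.5-fold. Apart from Eif2a the filled points stay inside the lines, and the open points furthest out belong to Eif3c at 1.36, Eif5 at 1.13 and Eif4g3 at -0.90.

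Probe sets of the same gene did not always go the same way. Of the 160 translation probe sets above the floor on at least 1 array, 7 were at least 1.5-fold higher and 2 at least 1.5-fold lower, where 2.47% and 4.72% of all probe sets above the floor passed. At 2-fold, 2 were higher and 0 lower, where 0.327% and 0.853% passed. Among the 104 with a mean intensity of at least 1000, 3 were at least 1.5-fold higher and 0 lower, against 0.608% and 0.655% of the 6412 probe sets of all genes at that level. The 3 belonged to Eif3c, Eif5 and Eif2a.

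For Eif3c, the probe set 1415859_at gave 2167 on the array labelled Satb1 against 845 on the array labelled GFP, a 2.56-fold difference. It was 1 of 5 probe sets (0.078%) at least 2-fold higher among the 6412 with a mean intensity of at least 1000. The 3 other Eif3c probe sets read 9930 against 10112, 8038 against 8497 and 7298 against 7283, between -0.080 and 0.0030 on the log2 scale.

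Eif5 showed the same division among its 5 probe sets. The probe set 1456256_at gave 758 on the array labelled Satb1 against 347 on the array labelled GFP, a 2.19-fold difference, and 1454664_a_at read 4605 against 2780, a 1.66-fold difference. The others read 7449 against 7459, 6162 against 5454 and 2083 against 2179. The high and the level probe sets of Eif5 therefore gave different answers for 1 gene.

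A dim probe set also stood apart from brighter ones in Eif4h and, in size but not in direction, in Eif4g3. The Eif4h probe set 1447070_at gave 465 on the array labelled Satb1 against 286 on the array labelled GFP, 1.63-fold higher, while the 3 brightest of that gene lay between -0.048 and 0.064 on the log2 scale. In Eif4g3 the probe set 1440571_at was lower, at 84.9 against 158, a 1.87-fold difference, and a second dim one read 83.7 against 109. The other probe sets past 1.5-fold were dim as well: Eif2d 1455797_x_at, at 185 against 112, Eif4ebp2 1455575_at, at 104 against 47.2 (at least 1.69-fold), and Eprs 1430370_at, at 62.8 against 95.

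The spread between probe sets was then compared with that in other genes. Of the 42 translation genes for which at least 2 probe sets exceeded the floor on each array, 3 (Eif3c, Eif5 and Eif4h) had probe sets at least 1 log2 unit apart in their differences, and over all 4840 such genes the share was 3.14%. Within a gene, the SD between probe sets was 0.27 on the log2 scale for the translation genes and 0.27 for all genes. Over probe sets with a mean intensity of at least 1000, it was 0.24 for 29 translation genes and 0.15 for all 1286 genes with at least 2 of them, and 1 translation gene, Eif3c, against 0.311% of all such genes, had probe sets at least 1 log2 unit apart. Without Eif3c the SD of the translation genes was 0.16. These probe sets share the arrays, so this SD is not the error of a difference between arrays. What part of each transcript the probe sets match was not analysed here.

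**Figure D4:**
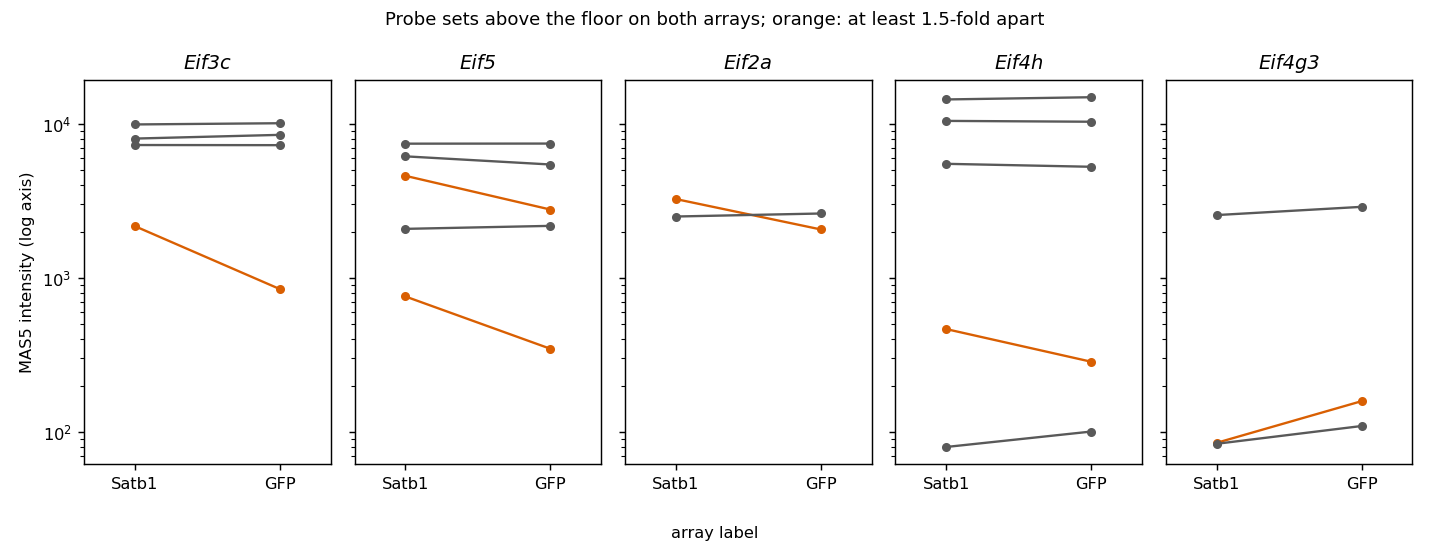
MAS5 intensity (log axis) of each probe set above the floor on both arrays, for Eif3c, Eif5, Eif2a, Eif4h and Eif4g3; each line joins the array labelled Satb1 (left) to the array labelled GFP (right), and orange marks probe sets at least 1.5-fold apart. The brightest probe sets of Eif3c, Eif5 and Eif4h are nearly level while 1 dimmer probe set of Eif3c, at 2167 against 845, and 2 of Eif5 slope; in Eif4g3 all 3 are lower on the array labelled Satb1, the brightest by the least.

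Of the 10 elongation factor genes above the floor, 4 were higher and 6 lower by some amount. Over all genes above the floor, 54.8% were lower, while 54.3% of genes with a mean intensity of at least 1000 were higher. A group of 10 is too small to set its count apart from either share. The elongation factor genes had a median log2 difference of -0.055. That median was -0.0019 after quantile normalization and 0.0045 without probe sets named _a_at, _s_at or _x_at. Eef1a1, the GTPase that brings charged tRNAs to the ribosome, read 27593 on the array labelled Satb1 against 30892 on the array labelled GFP, a log2 difference of -0.16. Its paralogue Eef1a2, known from muscle and neurons, read 312 against 297. Eef1d and Eef1b2 encode subunits of the exchange factor that recharges eEF1A with GTP. Eef1d was the lowest of the group at 10841 against 12166, a log2 difference of -0.17, although a second bright probe set of it read 7888 against 7359. Eef1b2 read 21604 against 22365.

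Other genes of this family have parts outside the ribosome. Eef1e1, which encodes a scaffold of the multi-synthetase complex, read 4964 on the array labelled Satb1 against 4687 on the array labelled GFP. The methyltransferase genes that modify lysines of eEF1A went both ways: Eef1akmt1 was the highest of the group at 1117 against 941, a log2 difference of 0.25, Eef1akmt2 read 687 against 770, and Eef1aknmt read 202 against 210. Of the Eef1akmt1 probe sets above the floor, 1 of 3 was lower, at 404 against 433.

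The translocation factor gene Eef2 read 18150.1 on the array labelled Satb1 against 17281 on the array labelled GFP, a log2 difference of 0.071. Eef2k, the kinase that inactivates eEF2, read 4204 against 4666, and all 3 of its probe sets were lower, at -0.17 to -0.047 on the log2 scale. Eef2kmt, a methyltransferase gene for eEF2, read 13.6 against 28.3, under the floor.

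The 19 cytosolic synthetase genes were all above the floor, with 10 higher and 9 lower by some amount and a median log2 difference of 0.012. Their differences spanned -0.30 to 0.24, and 0 of the 19 reached 1.5-fold. Of all genes above the floor, 1.75% passed that threshold upward and 3.91% downward, and 45.2% were higher by some amount. Of the 10 class I enzymes, 6 were higher and 4 lower, and of the 9 class II enzymes, 4 were higher and 5 lower. The classes are built on different catalytic folds.

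In class I, Iars, the isoleucine enzyme gene, was the highest, at 7163 on the array labelled Satb1 against 6413 on the array labelled GFP, a log2 difference of 0.16, and its second probe set read 3105 against 2911. The cysteine enzyme gene Cars was the lowest at 540 against 622, a log2 difference of -0.20, followed by the valine enzyme gene Vars at 1236 against 1380. Eprs, which encodes a joined enzyme for glutamate and proline, read 4794 against 4533. Between them lay Rars (4699 against 4372), Lars (3799 against 3644), Wars (716 against 694), Yars (644 against 637), Mars1 (3585 against 3597) and Qars (3645 against 3837), the enzymes of arginine, leucine, tryptophan, tyrosine, methionine and glutamine. Other Qars probe sets went both ways, at 3504 against 3868, 787 against 631 and 43.5, below the floor, against 81.9.

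In class II, Farsa was the highest and Sars the lowest. Farsa, the alpha subunit of the phenylalanine enzyme, read 2664 on the array labelled Satb1 against 2248 on the array labelled GFP, a 1.18-fold difference shared in direction by all 4 of its probe sets. The beta subunit gene Farsb, whose product works in a complex with that of Farsa, read 3739 against 3700. Kars, the lysine enzyme gene, read 4751 against 4138, a log2 difference of 0.20. Sars read 2792 against 3431, and its other probe set 2559 against 2713. The alanine enzyme gene Aars was also lower, at 2783 against 3169, a log2 difference of -0.19, and its other probe set read 1301 against 1334. Besides Farsb, nearest to level were Gars (5018 against 4975), Nars (7477 against 7608), Tars (2791 against 2887) and Hars (5359 against 5621), the enzymes of glycine, asparagine, threonine and histidine. The second probe sets of Nars (5268 against 4833) and Hars (1597 against 1428) were higher.

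Promoter sequences were examined because synthetase genes are known targets of the stress factor ATF4, which binds a composite element with C/EBP proteins, and because translation genes are known targets of Myc, which binds the E-box. RefSeq promoters (GRCm38.p6, 250 bases before to 50 after an annotated start) were at hand for 53 of the 71 genes. The composite element, TGATGNAA on either strand, occurred in 5 of 12 synthetase promoters (41.7%), in 1 of 9 elongation promoters and in 0 of 32 initiation promoters, against 4.51% of all 27025 genes with a promoter and 2.65% of the 8954 other genes above the floor. The matches of 4 synthetase genes are printed below because they lie close to a start, within 30 bases of it. Capitals mark the element.
Gars (chr6:55037960-55037989, plus strand): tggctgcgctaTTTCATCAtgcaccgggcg
Iars (chr13:49682126-49682155, plus strand): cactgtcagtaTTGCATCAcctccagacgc
Tars (chr15:11399655-11399684, minus strand): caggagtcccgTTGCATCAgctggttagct
Yars (chr4:129189895-129189924, plus strand): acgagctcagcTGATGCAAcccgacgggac
The first element base lies 30 bases before the start in Gars and 15 before it in Tars, and 7 and 3 bases after it in Iars and Yars. In Gars, Iars and Tars the element reads on the strand opposite to the gene. The 5 genes with a match had a median log2 difference of 0.012, and the synthetase genes without one 0.015. A match is a run of letters and does not show that the factor binds there.

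The E-box, CACGTG, which reads the same on both strands, occurred in 16 of the 53 translation promoters (30.2%), against 8.09% of all genes with a promoter and 11.9% of the other genes above the floor. It was found in 9 of 32 initiation promoters, 3 of 9 elongation promoters and 4 of 12 synthetase promoters. The genes with it included Eif5a2 and Eif3a, among the highest differences, and Eif4e and Eef2, which were nearly level. Their matches are shown with the E-box in capitals.
Eif5a2 (chr3:28781123-28781152, plus strand): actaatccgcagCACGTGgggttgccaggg
Eif3a (chr19:60790654-60790683, minus strand): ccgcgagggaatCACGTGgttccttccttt
Eif4e (chr3:138527192-138527221, plus strand): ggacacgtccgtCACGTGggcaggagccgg
Eef2 (chr10:81176576-81176605, plus strand): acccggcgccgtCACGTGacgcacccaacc
The E-box starts 142 bases before the start in Eif5a2, 64 before it in Eif4e and 43 before it in Eef2, and 22 bases after it in Eif3a. Eif5a2 and Eif4e each hold a second E-box, 117 and 228 bases before the start. Of the 16 genes with an E-box, 8 were higher and 8 lower on the array labelled Satb1 by some amount, with a median log2 difference of 0.00053, and the translation genes without one had a median of 0.012.

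The mitochondrial synthetases were set beside the cytosolic ones. Of the 17 listed, 16 were measured, with 4 higher and 12 lower by some amount and a median log2 difference of -0.17, against 0.012 for the cytosolic enzymes. In 16 pairs for the same amino acid, the cytosolic gene had the higher difference in 10 and the lower in 6, by a median of 0.13. The lowest mitochondrial gene was Sars2, at 200 on the array labelled Satb1 against 259 on the array labelled GFP, followed by Pars2 at 318 against 396. Aars2 went the other way, at 163 against 107, a 1.52-fold difference, and the 2 brightest, Iars2 (1557 against 1322) and Yars2 (1235 against 1105), were higher too. The others with a mean intensity of at least 1000 were lower: Lars2 (973 against 1183), Tars2 (995 against 1187) and Rars2 (1031 against 1071). In 10 of the 15 mitochondrial genes in these pairs the mean intensity was under 1000. The 6432 genes of all kinds above the floor with a mean under 1000 had a median log2 difference of -0.070, with 38.7% higher. The part of intensity in the result was not tested.

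**Figure D5:**
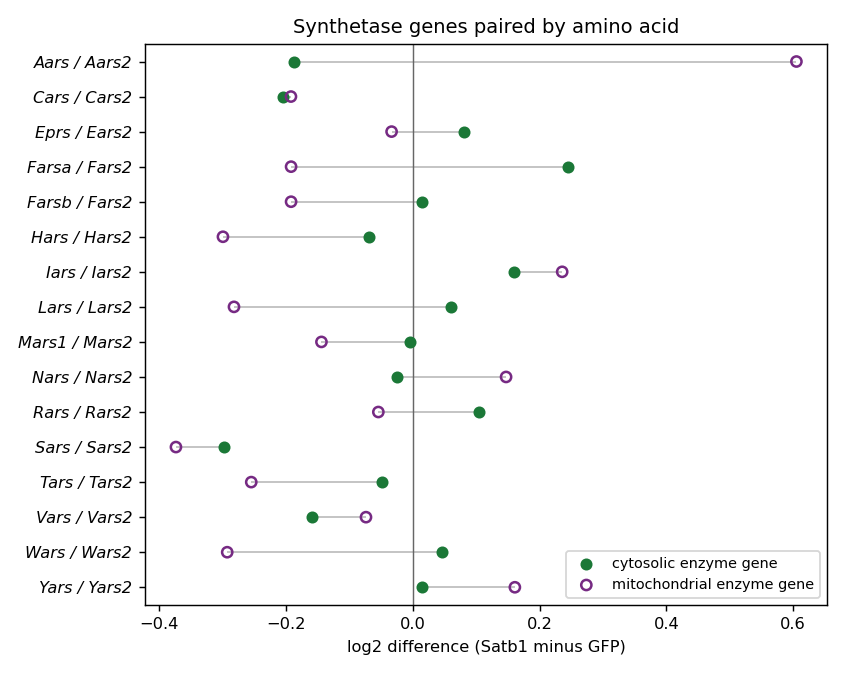
Log2 difference (Satb1 minus GFP) of cytosolic synthetase genes (filled) and of the mitochondrial gene for the same amino acid (open), 16 pairs, with Fars2 paired with both subunits. The cytosolic point lies to the right in 10 pairs, and Aars2 at 0.61 is the furthest from 0.

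Partners of these factors were examined in lists of other genes of the pathway. Of the 6 termination and recycling genes, 5 were higher by some amount, with a median log2 difference of 0.14 and 0 at 1.5-fold. Among all genes above the floor, 1.75% were higher and 3.91% lower by 1.5-fold. A rise of any size was seen in 45.2% of those genes. For genes with a mean intensity of at least 1000 that share was 54.3%. A list of 6 is too short to set its count of 5 apart from either share. Denr, whose product works with that of Mcts1 in recycling the small subunit, read 5661 on the array labelled Satb1 against 4724 on the array labelled GFP, and Mcts1 read 5683 against 4853. The release factor genes Etf1 (2881 against 2742) and Gspt1 (5701 against 5231) differed less, and the ribosome-splitting ATPase gene Abce1 read 5739 against 5126. Gspt2 was the lowest, at 203 against 217.

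Genes of the eIF2 stress arm went both ways, with a median log2 difference of 0.10 and an SD across genes of 0.20. Among 6 kinase and phosphatase genes, 4 were higher and 2 lower by some amount, where 45.2% of all genes above the floor were higher. Eif2ak4, the kinase that senses uncharged tRNA, read 870 on the array labelled Satb1 against 1100 on the array labelled GFP, a log2 difference of -0.34. The other kinase genes Eif2ak1 (349 against 312), Eif2ak2 (542 against 600) and Eif2ak3 (1041 against 992) lay within 0.16. The phosphatase subunit genes were both higher by some amount, with Ppp1r15b at 3996 against 3641 and Ppp1r15a at 622 against 557.

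Of the 14 genes of the ATF4 pathway, 5 were higher and 9 lower by some amount, with a median log2 difference of -0.071. Over all genes above the floor, 45.2% were higher and 54.8% lower by some amount. At 1.5-fold, 1 was higher and 0 were lower in this list, against 1.75% and 3.91% of all genes above the floor. Atf4 itself read 7372 on the array labelled Satb1 against 6638 on the array labelled GFP. Its targets in amino acid supply went both ways: the serine synthesis gene Psat1 read 6864 against 6329, whereas the asparagine synthetase gene Asns read 3440 against 3524, Phgdh of the same route 10804 against 11969, and the amino acid carrier gene Slc7a5 3769 against 4233. The gene past 1.5-fold was the dim cystine carrier gene Slc7a11, at 112 against 74.2, and Sesn2 read 142 against 96.8, while the lowest was the stress gene Nupr1, at 94.2 against 138.

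In the remaining lists no gene reached 1.5-fold, where 1.75% of all genes above the floor were higher and 3.91% lower by that much. By some amount, 45.2% of all genes above the floor were higher and 54.8% lower. Of genes with a mean intensity of at least 1000, 54.3% were higher by some amount. The lists are too short to set their counts apart from these shares. Of the 10 genes in the mTORC1 and S6 kinase list, 9 were measured, without Rps6kb1, with 4 higher and 5 lower by some amount. Mtor read 1231 on the array labelled Satb1 against 1331 on the array labelled GFP. Mlst8, the highest, read 267 against 226, Tsc1, the lowest, 924 against 1035, and Rheb, the brightest, 7687 against 7155. Of 9 cap and poly(A) partner genes, 7 were lower by some amount, by a list median of -0.034. Pdcd4, an inhibitor of the eIF4A helicase, was the lowest at 5628 against 6850, and the poly(A)-binding protein gene Pabpc1 read 27354 against 28858. The helicase gene Ddx3x was the highest, at 12767 against 12526. Among 10 genes for hypusine, diphthamide and selenocysteine, 6 were higher and 4 lower by some amount. The hypusine enzyme genes Dhps, at 857 against 936, and Dohh, at 1101 against 1032, went opposite ways, and the diphthamide gene Dph3 was the highest at 1738 against 1383, while Dph1, the lowest, read 56.4, below the floor, on the array labelled Satb1 and 71.4 on the array labelled GFP. Eefsec, the elongation factor of selenocysteine, read 514 against 425.

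The multi-synthetase complex scaffold genes completed the comparison. Aimp2 read 3112 on the array labelled Satb1 against 2592 on the array labelled GFP, a log2 difference of 0.26, while Aimp1 read 3175 against 3235. Tarsl2, a relative of the threonine enzyme, read 397 against 303, a 1.31-fold difference from a single probe set.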

How the data were processed

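Per the submitters' processing notes, the authors made the deposited values with MAS5, which gives each probe set 1 intensity on a linear scale. Version and scaling target were not stated in the sources used here. Detection calls were not used. Arrays have no read depth, and their number limits the precision.

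The platform annotation gave 1 symbol to 34945 of 45037 probe sets, more than 1 to 932, and no symbol to 9160. Names were brought up to date by Entrez ID against RefSeq (GRCm38.p6), which matched 34741. No array build is named, so gene coordinates are not printed except those of RefSeq promoter windows, of which 1 is not reported here.

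From the deposited intensities, values below the median of 61.7 were raised to it, log2 differences were taken, and a gene's value is that of its brightest probe set (mean log2 over both arrays). With 1 array per group the difference is described by 1.5-fold and 2-fold thresholds and set beside all genes. Python 3.11.15, numpy 2.4.6, pandas 2.3.3 and matplotlib 3.10.9 were used, and the scripts were tested on simulated data.

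The genes, gene lists, motifs and settings were chosen with earlier results of these data known. In each role group the genes with the highest and lowest difference and the 2 brightest were named, with any gene at 1.5-fold, paralogues, and other genes to account for each group.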

Additional observations from a re-analysis of the deposited data

How the results depend on the processing

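No paired analysis was possible because there was 1 array per group, and no array could be left out. The median log2 difference of the translation genes ran from -0.0054 to 0.016 over the alternatives, that of initiation from -0.0022 to 0.027, of elongation from -0.10 to 0.0045 and of the synthetases from -0.015 to 0.013. After quantile normalization, 33 of the 69 genes were higher and 36 lower by some amount, against 37 and 32 as reported. The count of genes at least 1.5-fold apart was 1 as reported, 2 with no floor or one at the 25th percentile (Eif2a and the dim Eef2kmt), and 0 when the probe sets of a gene were averaged, where Eif2a was 0.30. Counted as probe sets, an alternative chosen after seeing the data, it was 9. The count at 2-fold was 0, and 1 with no floor. Eif2a, called higher at 0.66, was -0.065 without probe sets named _a_at, _s_at or _x_at, where Eif4h, by its dim probe set at 0.70, was the only gene past 1.5-fold. That setting left 57 genes. Of 399 values of single genes under the alternatives, 388 moved by less than 0.27, the SD between probe sets within a gene. Another 10 moved by more. Most differences were smaller than 0.27, so a change of sign could stay within it. Under the other floor settings no gene that stayed changed its value, as these probe sets lay above the floor on both arrays. Reversal was counted only for a gene past 1.5-fold as reported, and the 1 case was Eif2a. Other genes changed sign as well: with probe sets averaged, Eif2d went from -0.12 to 0.16 and Eif3m from 0.13 to -0.20. The median of all genes, -0.024 as reported, was 0.0013 after quantile normalization. The comparison of within-gene SDs at intensities of at least 1000, with and without Eif3c, was chosen after seeing the data.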
